A study of Danio rerio with 16 samples.

Results

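Transcript levels of 9 transcription factor genes of the ventral ectoderm and epidermis were examined in early zebrafish embryos: gata2a, gata3, tfap2a, tp63, foxi1, dlx3b, dlx5a, grhl1 and grhl3. All array probes carrying one of these symbols in the platform annotation were taken, which gave 14 of 21495 probes and 9 of 9238 annotated gene symbols. tp63 had 5 probes, dlx3b had 2, and each of the other genes had 1. A gene with several probes is represented by the one with the highest mean, and levels are given as log2 intensity, so that a difference of 1 is a doubling.

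The study measured RNA from whole embryos on 2-colour Agilent arrays, with each sample in 1 dye channel and 60 to 100 pooled embryos per sample. By the labels, 3 arrays held 2 of the 16 samples, and each other array gave 1 of them. Protein synthesis was blocked in every group, controls included: embryos stood in 15 µg/ml cycloheximide from 1.5 hours after fertilization (hpf) until they were frozen at 4.7 hpf. The 16 samples formed 5 groups. WT (3 samples) was uninjected wild type. MZ (3 samples) was uninjected and carried the m793 allele of spg, which removes maternal and zygotic Pou5f1. MZ_Pou5f1 (3 samples) was MZ injected with 100 pg Pou5f1 mRNA per embryo. WT_Sox2 (3 samples) and MZ_Sox2 (4 samples) were injected with 50 pg Sox2 mRNA per embryo. No group received a control mRNA. Against an uninjected group, the injection itself and the injected mRNA therefore cannot be told apart. Because translation was blocked from 1.5 hpf, the design asks which transcripts respond to injected Pou5f1 or Sox2 without intermediate proteins made later. The series describes its replicates as biological, and the tests measure the spread between these pools.

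In the zebrafish gastrula a gradient of bone morphogenetic protein (BMP) signalling divides the ectoderm: high signalling on the ventral side gives epidermis and low signalling on the dorsal side gives neural tissue. GATA2 and GATA3 factors, AP-2 alpha (tfap2a) and p63 (tp63) act early in ventral, non-neural ectoderm, while Foxi1 and the Dlx factors act at its border with the neural plate, where the placodes form. Grainyhead-like factors (grhl1, grhl3) act in epithelial differentiation and barrier formation. Pou5f1, now named pou5f3, is a POU-domain factor supplied by the mother that takes part in activating the embryonic genome, and Sox2 is an HMG-box factor of the SoxB1 group that binds DNA with it. RNA from whole embryos does not tell apart fewer cells of a type and less RNA per cell.

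The samples did not sort by their labels. Over the brighter probes, 6 of 16 samples correlated best with a sample of their own group. WT replicates 1 and 2 were nearly alike (Pearson r = 0.996), but WT replicate 3 correlated at 0.809 and 0.804 with them and best with MZ replicate 2, at 0.927. MZ replicate 3 lay closest to MZ_Sox2 replicate 3 (r = 0.986). Each sample had 2 control features that match no transcript, a dark corner and a negative control. A value counts as above the control features when it exceeds the higher of the 2. The higher one was bright in WT replicate 3 (5.72) and MZ replicate 1 (7.05), against 2.89 to 3.65 in the other 14 samples. In both it was the dark corner, while the negative control read 4.50 and 3.75. The brighter of 2 pou5f3 probes read 14.49 ± 0.46 (SD, n = 3) in WT and 15.25 ± 0.63 (n = 3) in MZ, and the other read 14.05 ± 0.53 and 14.52 ± 0.70. In MZ_Pou5f1 (n = 3) these 2 probes read 14.27 ± 0.59 and 13.70 ± 0.41. The sox2 probe read 7.33 ± 0.84 (n = 3) in WT and 4.65 ± 0.52 (n = 3) in WT_Sox2. It read 8.22 ± 0.81 (n = 3) in MZ, 6.42 ± 1.06 (n = 4) in MZ_Sox2 and 5.61 ± 0.95 (n = 3) in MZ_Pou5f1, which received no Sox2 mRNA. None of the 3 probes is known to read the altered allele or the injected mRNA, so none checks a label. The values of MZ_Pou5f1 replicate 2 and MZ_Sox2 replicate 4 had another distribution and were mapped by rank onto that of the other 14 samples.

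Across the 16 samples, 8 of the 9 genes followed a common pattern that crossed the group labels. Among them dlx3b followed it only loosely, and tp63 did not follow it. The median level of the 8 genes was high in WT replicate 3, MZ replicates 1 and 2 and MZ_Sox2 replicate 2. It was low in WT replicates 1 and 2, MZ_Pou5f1 replicates 2 and 3 and MZ_Sox2 replicate 1. Of the 16 samples, MZ replicate 1 ranked 13 for the brighter dlx3b probe and MZ_Sox2 replicate 1 ranked 5 for dlx5a. In WT replicate 3 and MZ replicate 1 neither dlx5a nor that dlx3b probe exceeded the higher control feature, so their levels there are uncertain. No probe of the 9 genes passed the adjusted threshold in any of the 7 comparisons. In MZ_Pou5f1 against MZ, 7 of the 9 genes were lower with no overlap between groups, while 6.51% of all probes were lower and 10.4% higher in that way. That comparison had the median farthest from 0 (-2.19), but without WT replicate 3 MZ against WT had a median of 2.66, and with slide as a fixed block the medians were 1.94 in MZ against WT and -1.32 in MZ_Pou5f1 against MZ.

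gata2a encodes a GATA zinc-finger factor of ventral ectoderm and blood precursors. Its single probe, A_15_P109538, read 7.85, 7.72 and 12.94 in WT replicates 1, 2 and 3, and 13.06, 12.88 and 10.32 in the 3 MZ replicates. It read 7.99, 7.59 and 8.11 in MZ_Pou5f1, 8.40, 9.51 and 7.80 in WT_Sox2, and 7.87, 13.38, 9.07 and 11.36 in MZ_Sox2. All MZ samples lay above all MZ_Pou5f1 and all WT_Sox2 samples, whereas WT and MZ_Sox2 each held samples at both ends of the range. The group means ran from 12.09 in MZ through 10.42 in MZ_Sox2, 9.51 in WT and 8.57 in WT_Sox2 to 7.90 in MZ_Pou5f1.

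gata3 encodes the related factor Gata3 and its probe, A_15_P115716, read 7.33, 7.07 and 9.98 in WT and 8.65, 8.74 and 8.10 in MZ. The levels were 7.90, 5.56 and 6.29 in MZ_Pou5f1, 5.84, 7.05 and 7.02 in WT_Sox2, and 4.88, 9.10, 7.05 and 7.71 in MZ_Sox2. WT replicate 3 was the brightest of the 16 samples and MZ_Sox2 replicate 1 the dimmest. Group means were 8.50 in MZ, 8.12 in WT, 7.18 in MZ_Sox2, 6.64 in WT_Sox2 and 6.58 in MZ_Pou5f1.

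tfap2a encodes AP-2 alpha, which acts in epidermis and neural crest. Its probe, A_15_P113530, read 5.99, 5.83 and 10.98 in WT and 11.87, 11.33 and 9.27 in MZ. MZ_Pou5f1 gave 7.56, 8.21 and 5.94, WT_Sox2 gave 9.96, 9.73 and 8.53, and MZ_Sox2 gave 6.78, 11.65, 9.0 and 10.56. The lowest MZ sample lay above the highest MZ_Pou5f1 sample, and WT replicates 1 and 2 and MZ_Pou5f1 replicate 3 were the 3 lowest of all 16. Group means were 10.82 in MZ, 9.50 in MZ_Sox2, 9.41 in WT_Sox2, 7.60 in WT and 7.24 in MZ_Pou5f1.

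foxi1 encodes a forkhead factor needed for the otic placode. Its probe, A_15_P103192, read 6.80, 6.92 and 8.82 in WT, 9.97, 9.60 and 8.60 in MZ, and 5.83, 5.10 and 5.63 in MZ_Pou5f1. WT_Sox2 gave 7.83, 7.23 and 6.10, and MZ_Sox2 gave 5.39, 10.68, 8.31 and 8.80. All 3 MZ_Pou5f1 samples lay below every sample of WT, MZ and WT_Sox2, and MZ_Sox2 replicate 1 was the only other sample in their range. Group means were 9.39 in MZ, 8.30 in MZ_Sox2, 7.51 in WT, 7.06 in WT_Sox2 and 5.52 in MZ_Pou5f1.

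**Figure D1:**
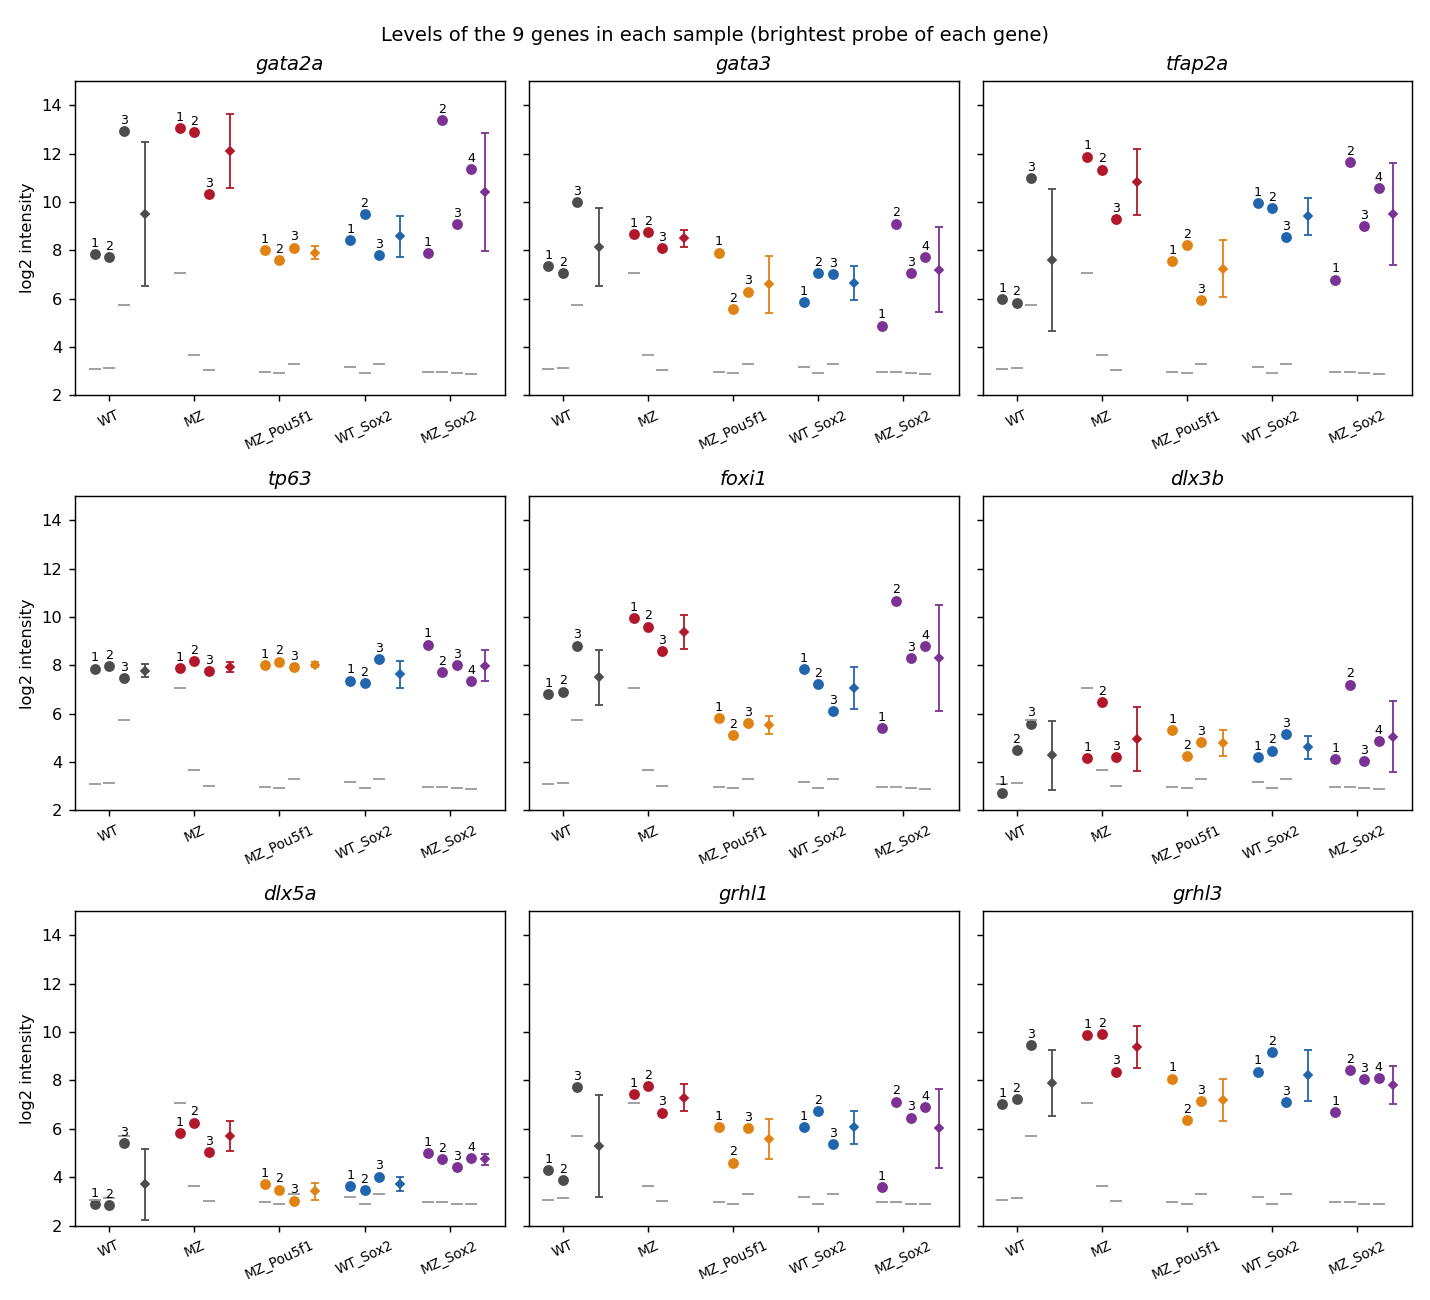
Log2 intensity (vertical axis) of the representative probe of each gene in each sample, in 9 panels with the 5 groups on the horizontal axis. Points are samples numbered by replicate, diamonds with bars are the group mean ± SD, and grey dashes are the higher control feature of that sample. In WT, replicate 3 lies far above replicates 1 and 2 for gata2a (12.94) and tfap2a (10.98), while tp63 stays between 7.25 and 8.86 in all samples.

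The distal-less genes were read nearer to the control features. dlx5a, a homeobox gene of the neural plate border and later the branchial arches, gave 2.88, 2.84 and 5.41 in WT and 5.83, 6.26 and 5.05 in MZ. It gave 3.72, 3.49 and 3.03 in MZ_Pou5f1, 3.63, 3.48 and 4.03 in WT_Sox2, and 4.98, 4.74, 4.42 and 4.80 in MZ_Sox2. None of the 3 WT samples exceeded the higher of its own control features, and neither did MZ replicate 1 or MZ_Pou5f1 replicate 3. In WT replicate 3 and MZ replicate 1 dlx5a lay below the dark corner but above the negative control (4.50 and 3.75). WT therefore gives only an upper bound on dlx5a, with a bound on the mean of 3.98.

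dlx3b, a homeobox gene of the placodal and olfactory border, had a brighter probe, A_15_P117241, with group means from 4.27 in WT to 5.05 in MZ_Sox2 and single values from 2.73 to 7.21. Its other probe, A_15_P110795, was above the control features in 0 of 3 WT samples and reached 8.95 in MZ replicate 1. The levels of the 2 probes correlated at r = 0.463 across the 16 samples, so the dlx3b reading depends on the probe.

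grhl1 gave 4.29, 3.89 and 7.73 in WT, 7.44, 7.77 and 6.67 in MZ, and 6.07, 4.60 and 6.03 in MZ_Pou5f1. It gave 6.07, 6.74 and 5.38 in WT_Sox2 and 3.57, 7.12, 6.47 and 6.89 in MZ_Sox2. WT replicate 3 lay within the MZ range and WT replicates 1 and 2 below it. grhl3 gave 7.01, 7.23 and 9.46 in WT, 9.87, 9.91 and 8.37 in MZ, and 8.08, 6.36 and 7.14 in MZ_Pou5f1. For grhl3 the levels were 8.37, 9.17 and 7.10 in WT_Sox2 and 6.68, 8.43, 8.06 and 8.10 in MZ_Sox2. Both grainyhead genes had their highest mean in MZ, at 7.29 for grhl1 and 9.38 for grhl3.

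tp63, which encodes p63, the regulator of stratified epithelia, was level by its brightest probe. That probe, A_15_P105986, read 7.87, 7.98 and 7.47 in WT, 7.88, 8.16 and 7.75 in MZ, 8.0, 8.15 and 7.93 in MZ_Pou5f1, 7.37, 7.25 and 8.25 in WT_Sox2, and 8.86, 7.72, 8.01 and 7.34 in MZ_Sox2. The range over the 16 samples was 7.25 to 8.86, and its group means ranged from 7.63 to 8.03. The second probe, A_15_P118949, was at 6.94 to 8.41, with an SD over the samples of 0.41 against 0.40 for the first. The other 3 tp63 probes were above the control features in 14, 11 and 8 of the 16 samples. Correlations among the 5 probes had a median r of 0.0631.

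**Figure D2:**
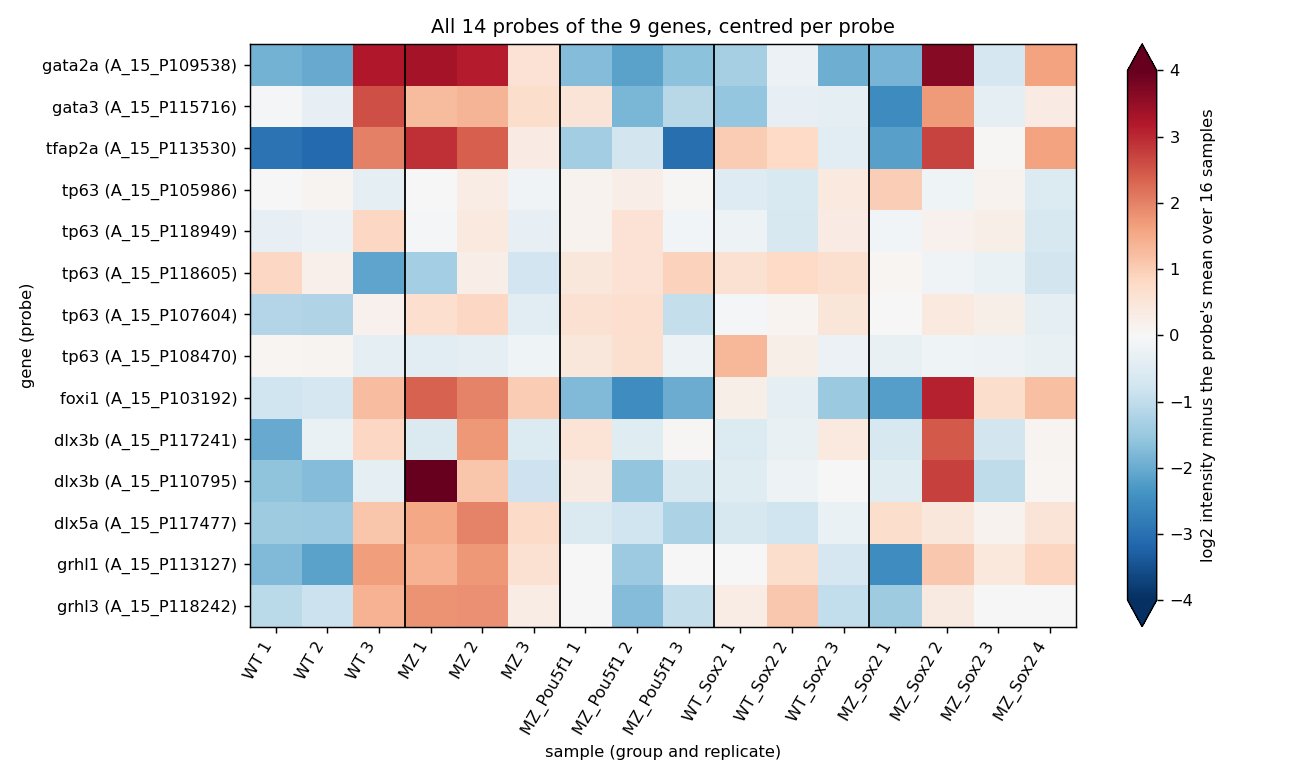
Log2 intensity minus each probe's mean over the 16 samples (colour scale from -4 to 4; darker colours at its ends are beyond it), for all 14 probes in rows and the 16 samples in columns, with lines between groups. In WT replicate 3, MZ replicates 1 and 2 and MZ_Sox2 replicate 2 the rows of gata2a, gata3, tfap2a, foxi1, dlx5a, grhl1 and grhl3 are red. The dlx3b rows are red there except for one probe each in MZ replicate 1 (4.17) and WT replicate 3 (3.91), and the tp63 rows are pale or mixed.

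Across the 16 samples, the 28 pairs among the 8 genes other than tp63 had a median Pearson r of 0.752, with a range from 0.412 to 0.906 for gata2a with foxi1. By Spearman rank correlation, the pairs that hold dlx3b ran from 0.229 with dlx5a to 0.518 with gata3. The 8 pairs with tp63 ranged from -0.561 to 0.0947, with a median of -0.427. These correlations are descriptive, over 16 samples that share arrays, slides and pooling. For gata2a, 2.29% of the other probes correlated above 0.8 and the median over all probes was -0.0423. After group means were removed, the 28 pairs still had a median r of 0.764, with a range of 0.283 to 0.921. The share of each gene's spread that lay between groups was 66.4% for dlx5a (WT not above the control features), 56.3% for foxi1, 43.8% for gata2a, 42.4% for grhl3, 41.1% for tfap2a, 33.0% for gata3, 25.9% for grhl1, 14.1% for tp63 and 7.52% for dlx3b, against a median of 32.7% over all probes.

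**Figure D3:**
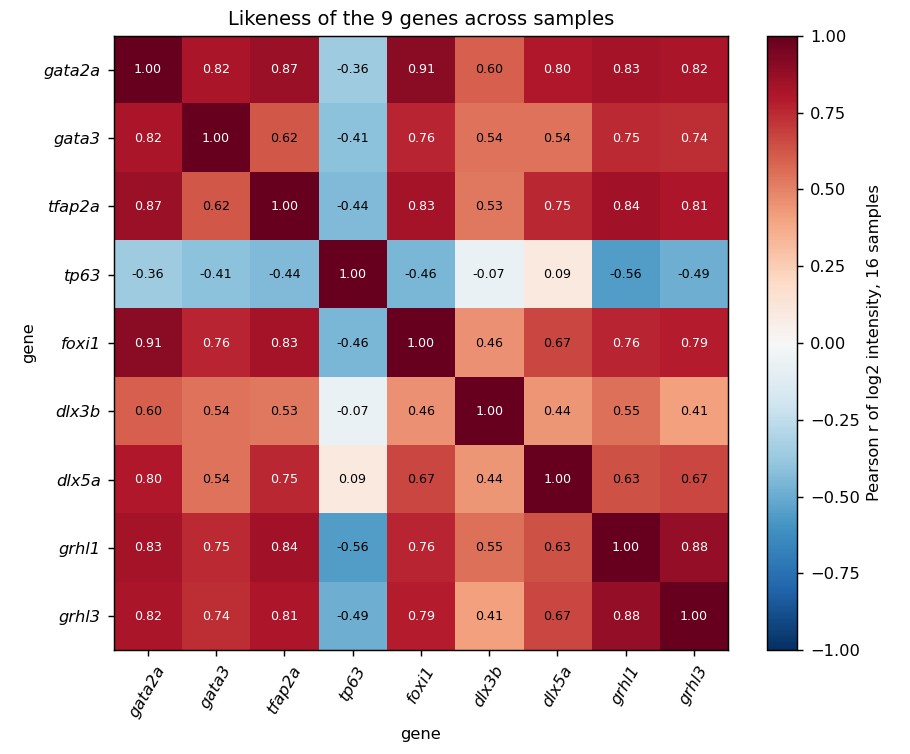
Pearson r of log2 intensity over the 16 samples between the representative probes of the 9 genes, as a colour scale from -1 to 1 with the value printed in each cell. The highest pair is gata2a with foxi1, at 0.906, and the tp63 row lies between -0.561 and 0.0947.

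Among 8751 other named genes, those most like each member in Pearson r were, over the same 16 samples, apoc1 (0.985) and foxb1b (0.976) for gata2a, ier5l (0.955) and srsf5a (0.951) for gata3, and arglu1a (0.965) and cebpb (0.958) for tfap2a. For foxi1 they were igf2a (0.939) and apoc1 (0.930), for dlx5a cpb1 (0.922) and tp53inp2a (0.895), and for dlx3b psip1a (0.830) and psmb13a (0.823). Of these, cpb1 and psmb13a were dim, at mean levels of 3.99 and 4.18. dlx5a and dlx3b were themselves above the control features in only 11 and 13 of the 16 samples. The best matches of grhl1 were tbx16 (0.932) and faah2a (0.916), those of grhl3 tbxta (0.963) and gata5 (0.951), and those of tp63 ctnnb2 (0.903) and rfc1 (0.900).

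In the RefSeq gene table of assembly GRCz12tu, dlx3b lies beside dlx4b and dlx5a beside dlx6a. The neighbour of dlx3b correlated with it at r = 0.237. dlx6a, read at 8.14 to 10.92, correlated with dlx5a at -0.509.

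MZ was compared with WT to ask how the 9 genes differ without Pou5f1. 8 genes had a positive difference and 1 a negative one, at a median of 1.97 on the log2 scale, while 47.4% of all probes were positive and 52.6% negative and the median over all probes was -0.04. Without dlx5a, which no WT sample showed above the control features, 7 of 8 genes were positive and the median was 1.90. No member probe was called at an adjusted p of 0.05, against 0.00465% of all probes, and 5 member probes had an unadjusted p under 0.05, against 12.2% of all probes. They were those of dlx5a, tfap2a, foxi1 and grhl1 and the dimmer one of dlx3b. No member had groups without overlap, against 5.23% of all probes higher and 7.96% lower.

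tfap2a differed by 3.67 (SE 1.33, limma adjusted p = 0.35) and foxi1 by 2.20 (SE 0.96, adjusted p = 0.39). dlx5a had measured means of 5.71 in MZ and 3.71 in WT (adjusted p = 0.31). Since it exceeded the control features in 0 of 3 WT and 2 of 3 MZ samples, no difference is given for it. The dimmer dlx3b probe, A_15_P110795, was also not above the control features in any WT sample. Each WT sample was set at the higher of its own value and its control feature. The mean of that probe was then at least 3.92-fold higher in MZ, with measured means of 5.95 and 3.06 (limma adjusted p = 0.40). Its MZ values were 8.95, 5.42 and 3.47, so this bound leaned on MZ replicate 1. MZ replicate 3 (3.47) lay below WT replicate 3 (3.91). The brighter dlx3b probe was above the control features in 1 of 3 WT and 2 of 3 MZ samples, at means of 4.27 and 4.95. In MZ replicate 1 it read 4.17, below the higher control feature of that sample (7.05), so it did not share the high value of the dimmer probe. gata2a differed by 2.86 (SE 1.47) and tp63, by its brightest probe, by -0.0028 (SE 0.31), with a 95% interval of -0.68 to 0.67 for tp63. The tp63 probes A_15_P118949 and A_15_P118605 differed by -0.08 (SE 0.39) and -0.42 (SE 0.59). A_15_P107604 read 4.27 in MZ and 3.17 in WT, with no WT sample above the control features. A_15_P108470 read 2.84 in MZ and 3.09 in WT, with no MZ sample above them. The intervals of the differences were wide for gata2a, -0.34 to 6.06, and tfap2a, 0.79 to 6.55.

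MZ and WT were also set side by side on the 3 arrays that held a sample of each. The 2 samples of an array were in opposite dyes, and these differences are not corrected for dye. MZ was in Cy3 beside WT replicate 1 and in Cy5 beside WT replicates 2 and 3. The fitted correlation within arrays was low (0.0429). On the array of WT replicate 1 and MZ replicate 3, gata2a was 2.46 higher in MZ, tfap2a 3.28 and foxi1 1.80. On that of WT replicate 2 and MZ replicate 1, the differences were 5.34, 6.04 and 3.05. On that of WT replicate 3 and MZ replicate 2 they were -0.06, 0.35 and 0.78, so the third array showed the same direction for tfap2a and foxi1 but not for gata2a. gata3 was 0.77 and 1.59 higher in MZ on the first 2 arrays and 1.24 lower on the third. grhl3 was higher in MZ on all 3, by 1.36, 2.64 and 0.45. dlx5a read 5.05 in MZ against 2.88 in WT on the first array and 6.26 against 5.41 on the third, with WT not above the control features on either, and neither sample of the second array was above them. tp63 was -0.12, -0.10 and 0.69. Without WT replicate 3, tfap2a was at 5.04 (adjusted p = 0.071) and foxi1 at 2.66 (adjusted p = 0.15). Without WT replicate 2, tfap2a was at 2.59 and foxi1 at 1.75 (adjusted p = 0.59 and 0.67). The adjusted p of dlx5a was 0.027 without WT replicate 3, among 4 of 21495 probes called, and 0.62 without WT replicate 1. Both WT samples left in the first of these fits were below the higher of their control features, so the call has no size. With the array correlation re-estimated, dlx5a was called without WT replicate 2 (adjusted p = 0.031) and without MZ replicate 1 (adjusted p = 0.035), and no member was called without any 1 of the other 4 WT and MZ samples.

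**Figure D4:**
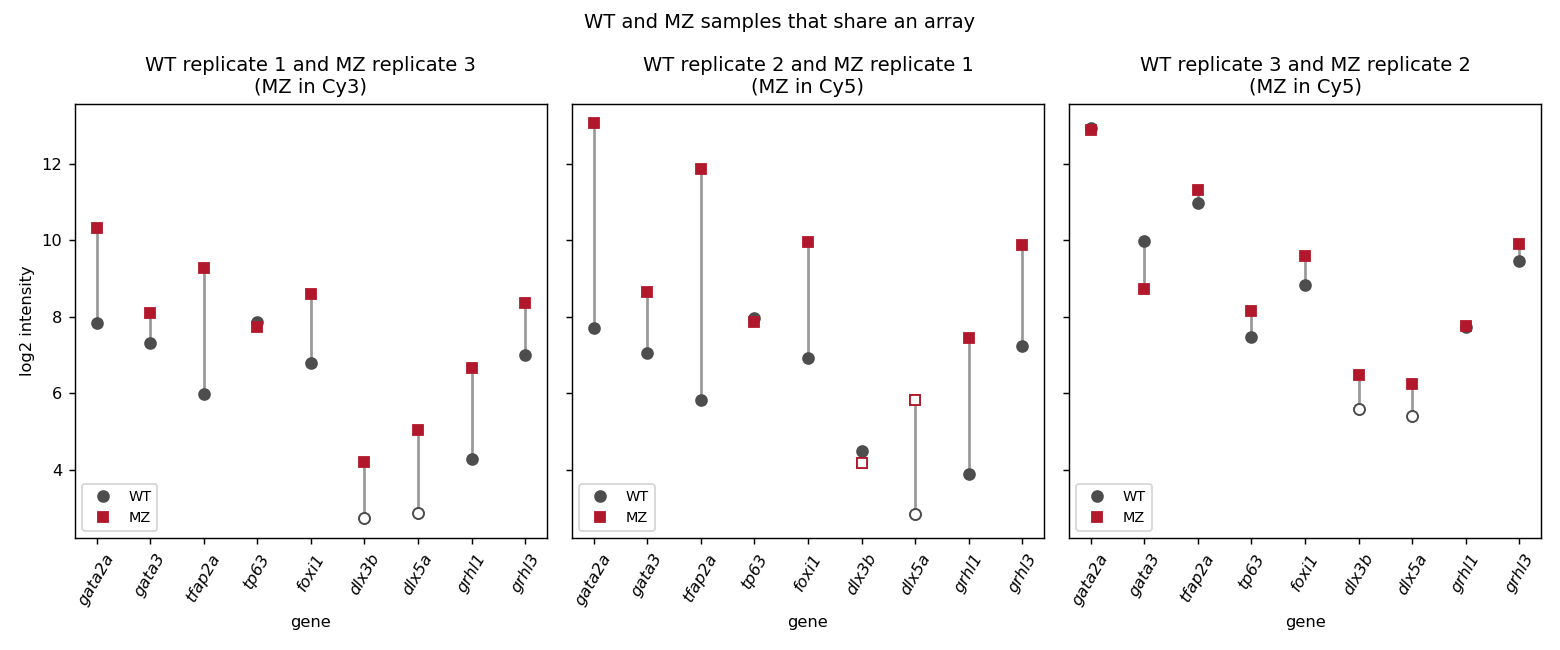
Log2 intensity (vertical axis) of the 9 genes (horizontal axis) in the 2 samples of each of the 3 arrays that held a WT and an MZ sample, with WT as circles and MZ as squares joined by a line and open symbols for values not above the control features. On the first 2 arrays the MZ squares of gata2a, gata3, tfap2a, foxi1, grhl1 and grhl3 lie above the WT circles, and on the third those of gata2a and grhl1 coincide within 0.06; open symbols mark dlx5a in all 3 WT samples, dlx3b in WT replicates 1 and 3, and both genes in MZ replicate 1.

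MZ_Pou5f1 was compared with MZ to ask which of the genes respond when Pou5f1 mRNA is returned. 8 of 9 genes had a negative difference and 1 a positive one, at a median of -2.19, against 46.4% of all probes negative and 53.6% positive. In 7 genes, all but tp63 and dlx3b, every MZ_Pou5f1 sample lay below every MZ sample, against 6.51% of all probes lower and 10.4% higher. No member was called at the adjusted threshold, nor was any of the 21495 probes (0%), and 6 member probes had an unadjusted p under 0.05, 5 of them representative probes and 1 a dim tp63 probe, against 12.2%. dlx5a was not above the control features in MZ replicate 1 or MZ_Pou5f1 replicate 3.

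foxi1 differed by -3.87 (SE 0.96, limma adjusted p = 0.41), gata2a by -4.19 (SE 1.47), tfap2a by -3.59 (SE 1.32), dlx5a by -2.30 (SE 0.57, adjusted p = 0.41) and grhl3 by -2.19 (SE 0.76, adjusted p = 0.41). tp63 differed by 0.10 (SE 0.31), with a 95% interval of -0.58 to 0.77, while 1 dim probe of it, A_15_P118605, read higher in MZ_Pou5f1 by 1.29 (SE 0.59), above the control features in 2 of 3 MZ samples. dlx3b differed by -0.16 (SE 0.91) by its brighter probe and by -2.26 (SE 1.18, adjusted p = 0.42) by the other, which was above the control features in 2 of 3 MZ_Pou5f1 samples. MZ replicate 3 shared slide 3 with the MZ_Pou5f1 samples, whereas MZ replicates 1 and 2 were on slide 4. Within slide 3, against MZ replicate 3 alone, foxi1 was at -3.08, gata2a at -2.42, tfap2a at -2.04, dlx5a at -1.64, gata3 at -1.52, grhl3 at -1.17 and grhl1 at -1.10, and tp63 at 0.28 and dlx3b at 0.58. foxi1 was the 1 member called when only these groups were fitted (adjusted p = 0.037), among 22 of 21495 probes. It was also the 1 called without MZ replicate 3, at a difference of -4.77 (adjusted p = 0.046), among 491 of 21495 probes.

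**Figure D5:**
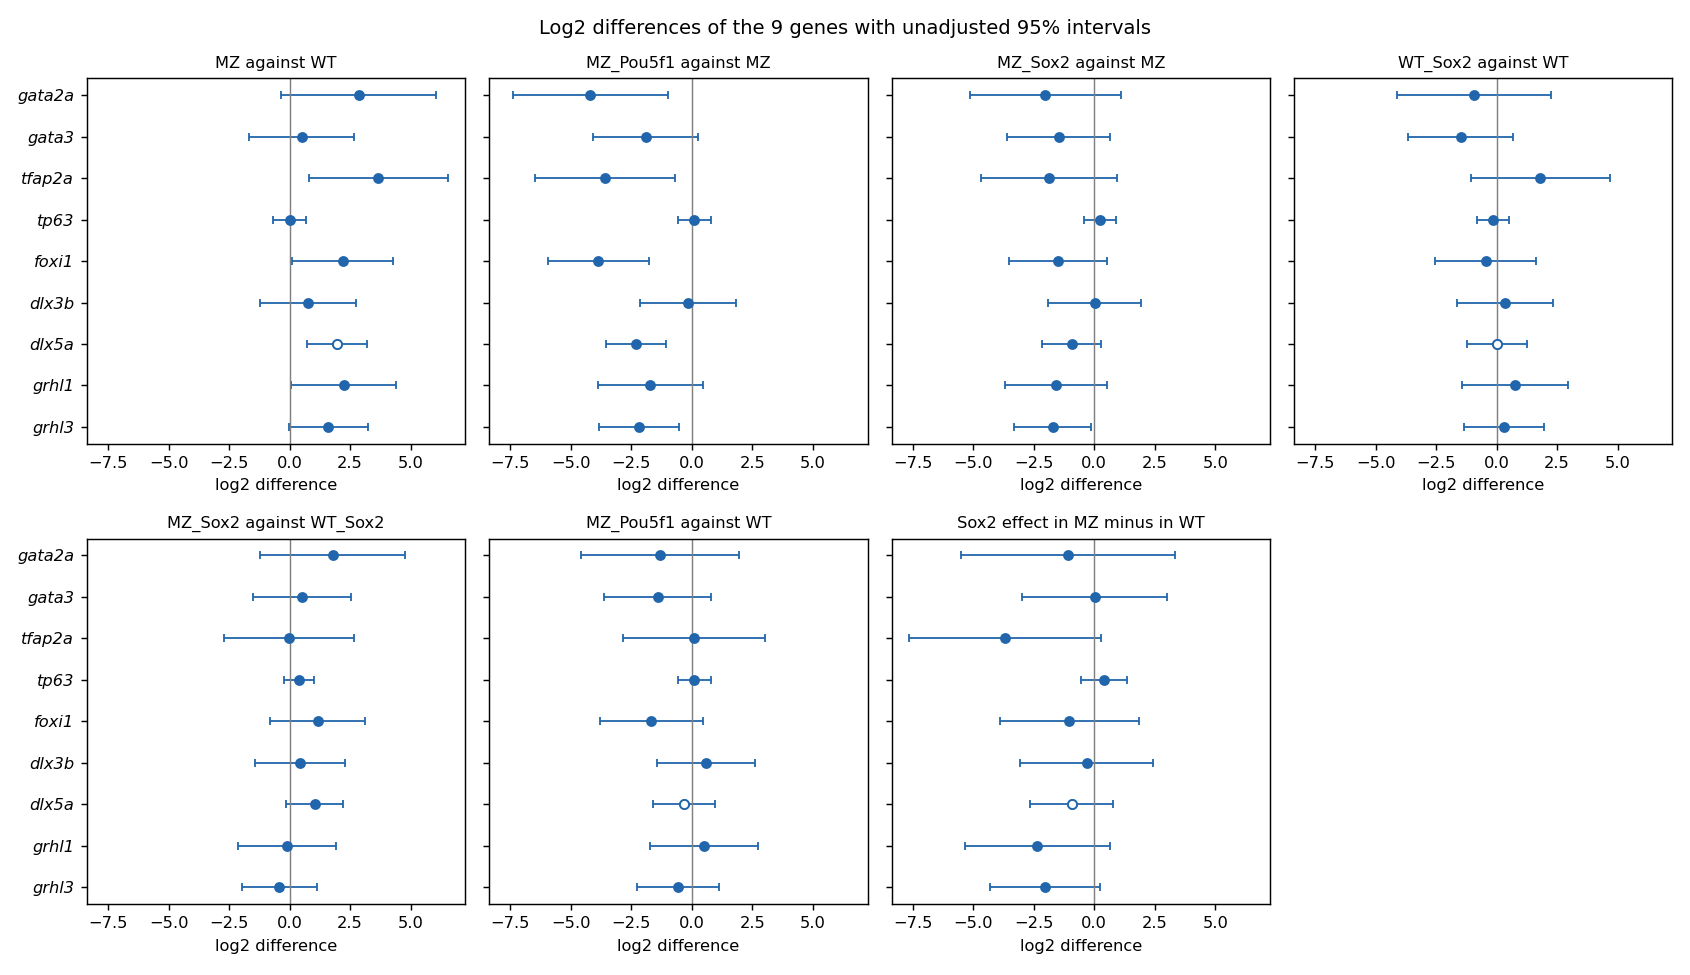
Log2 difference (horizontal axis) with its unadjusted 95% interval for the 9 genes in the 7 comparisons, one panel each. Open points mark dlx5a in the 4 panels that use WT, where it was not above the control features and its position is no measured difference. In MZ_Pou5f1 against MZ the points of foxi1 (-3.87), gata2a (-4.19), tfap2a (-3.59), dlx5a (-2.30) and grhl3 (-2.19) have intervals to the left of 0, and the point of tp63 is at 0.10.

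MZ_Pou5f1 was compared with WT to ask whether returning Pou5f1 brought the genes to their wild-type level. 4 genes had a positive difference and 5 a negative one, with a median of -0.32, against 47.4% of all probes positive and 52.6% negative. Without dlx5a, 4 were positive and 4 negative, with a median of -0.25. No member was called (0% of all probes were) and none had an unadjusted p under 0.05, against 7.24%. foxi1 was the 1 gene without overlap and was lower, against 8.84% of all probes lower and 6.66% higher. Its difference was -1.67 (SE 0.98, limma adjusted p = 0.70). gata3 differed by -1.42 (SE 1.02, adjusted p = 0.72) and gata2a by -1.33 (SE 1.50, adjusted p = 0.80), with a 95% interval for gata2a of -4.60 to 1.94. Within slide 3, against WT replicate 1 alone, foxi1 was at -1.28 and gata3 at -0.75. There grhl1 was at 1.28, tfap2a at 1.25, grhl3 at 0.18, tp63 at 0.16 and gata2a at 0.04, while dlx3b and dlx5a were not above the control features in WT replicate 1 and have no measured difference. Over the fits that left out 1 sample, gata3 ran from -2.10 to -0.48 and foxi1 from -2.13 to -0.89. The median of the 9 genes was 0.27 with slide as a fixed block and 0.15 without WT replicate 3, so its sign depended on both, as did that of gata2a (0.15 in each). The 3 comparisons among WT, MZ and MZ_Pou5f1 share their samples pairwise, and those of the Sox2 groups with MZ and WT use the same MZ and WT samples again.

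MZ_Sox2 was compared with MZ to ask how the genes respond to Sox2 mRNA without Pou5f1. 7 of 9 genes had a negative difference and 2 a positive one, with a median of -1.50, against 46.6% of all probes negative and 53.4% positive. No member was called (0% of all probes were), and 1 had an unadjusted p under 0.05, against 4.82%. Only dlx5a had no overlap and was lower, against 2.09% of all probes lower and 2.11% higher. Its lack of overlap depended on the mapping by rank. MZ_Sox2 replicate 4 read 4.80 after mapping and 5.20 as deposited, against 5.05 in MZ replicate 3. In MZ replicate 1 dlx5a was not above the control features. grhl3 differed by -1.72 (SE 0.74, limma adjusted p = 0.77), dlx5a by -0.94 (SE 0.56, adjusted p = 0.77) and grhl1 by -1.59 (SE 0.98, adjusted p = 0.77). MZ_Sox2 replicate 1 was the lowest of its group for gata2a, gata3, tfap2a, foxi1, grhl1 and grhl3, and without it the median of the 9 genes was -0.50 and grhl1 was at -0.50. Without MZ replicate 3 the median was -2.45, with grhl1 at -2.45 and grhl3 at -2.70. No slide held samples of both groups, so slide and Sox2 cannot be told apart in this comparison or in WT_Sox2 against WT.

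WT_Sox2 was compared with WT for the same question in the presence of Pou5f1. 5 genes had a positive difference and 4 a negative one, with a median of 0.00, against 45.2% of all probes positive and 54.8% negative. Without dlx5a, 4 were positive and 4 negative, with a median of 0.08. No member was called, against 0.0977% of all probes, and none had an unadjusted p under 0.05, against 14.5%. gata3 alone had no overlap and was lower, against 15.3% of all probes lower and 12% higher. It differed by -1.49 (SE 1.0, limma adjusted p = 0.52), tfap2a by 1.81 (SE 1.32, adjusted p = 0.55) and grhl1 by 0.76 (SE 1.0, adjusted p = 0.76). The dlx5a levels of WT lay under the higher control feature of each sample, so no fold is given. Without WT replicate 3 the median was 0.91 and without WT replicate 1 -0.46. Without WT replicate 3, tfap2a was at 3.34 and gata3 at -0.58, and without WT replicate 2 they were at 0.61 and -2.12.

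MZ_Sox2 was compared with WT_Sox2 to ask how the 2 genotypes differ when both receive Sox2. 6 of 9 genes had a positive difference and 3 a negative one, with a median of 0.43, against 49.6% of all probes positive and 50.4% negative. No member was called, against 0.0186% of all probes. 1 member probe, of tp63 and not its brightest, had an unadjusted p under 0.05, against 7.57%. dlx5a was the 1 gene without overlap and was higher, against 4.89% of all probes higher and 5.37% lower. It differed by 1.03 (SE 0.53, limma adjusted p = 0.71), tp63 by 0.40 (SE 0.29, adjusted p = 0.84) and gata2a by 1.78 (SE 1.38, adjusted p = 0.86). Slide 1 held MZ_Sox2 replicate 1 and all 3 WT_Sox2 samples, and within it 7 of the 9 genes were lower in the MZ_Sox2 sample. The values were -2.63 for tfap2a, -2.49 for grhl1, -1.76 for gata3, -1.66 for foxi1, -1.54 for grhl3, -0.70 for gata2a and -0.49 for dlx3b, while dlx5a was at 1.27 and tp63 at 1.23. The median of the 9 genes turned to -1.49 with slide as a fixed block and to -0.09 without MZ_Sox2 replicate 2. With that block the 2 groups are compared through MZ_Sox2 replicate 1. gata2a was at 0.86 without MZ_Sox2 replicate 2 and at 2.66 without MZ_Sox2 replicate 1.

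The difference between the Sox2 responses of MZ and WT was tested as an interaction. 7 of 9 genes had a negative value and 2 a positive one, with a median of -1.04, against 47.5% of all probes negative and 52.5% positive. Without dlx5a, 6 of 8 were negative, with a median of -1.06. No member was called (0% of all probes were) and none had an unadjusted p under 0.05, against 9.09%. tfap2a was at -3.69 (SE 1.83, limma adjusted p = 0.58), grhl3 at -2.03 (SE 1.05, adjusted p = 0.59) and grhl1 at -2.35 (SE 1.38, adjusted p = 0.63). The median of the 9 genes was 0.03 without MZ_Sox2 replicate 1, -0.29 without WT replicate 1, -0.55 without WT replicate 2 and -0.65 without MZ replicate 1. It was -1.73 without WT replicate 3, -2.17 without MZ replicate 3, -1.68 without MZ_Sox2 replicate 2 and -2.99 with slide as a fixed block. With that block the 2 Sox2 groups are compared through MZ_Sox2 replicate 1, the only sample of its group on the slide of the WT_Sox2 samples.

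Over all 10 pairs of groups and 14 probes, 0 of 140 tests were called by limma, against 0.0121% of the tests of all probes over the same pairs. An unadjusted p under 0.05 was found in 19 tests of the member probes (13.6%), against 8.60% of the tests of all probes. The lowest adjusted p among the member probes was 0.31, so no 2 neighbours in the order of means of any gene passed the adjusted threshold.

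Other genes of the same pathway were described as lists. Of 33 genes of the BMP pathway and ventral regulators, 25 were measured. The listed genes include chrd and nog1, which are also dorsal organizer markers below. None was called in any comparison, and in MZ against WT 20 of them were positive (median 1.04) and in MZ_Pou5f1 against MZ 19 were negative (median -0.97), beside 8 and 8 of the 9 members. The 2 with the largest test statistics were eve1, a homeobox gene of ventral mesoderm, at 2.40 in MZ against WT (SE 0.50, limma adjusted p = 0.24), and ved, a ventral homeobox repressor, at -4.61 in MZ_Pou5f1 against MZ (SE 1.37, adjusted p = 0.41). Of 19 genes of the enveloping layer and epidermis, 14 were measured, with 12 positive in MZ against WT and 11 negative in MZ_Pou5f1 against MZ. The keratin gene cyt1 was at 1.73 in MZ_Sox2 against WT_Sox2 (SE 0.37, adjusted p = 0.19), and klf17, a Krüppel-like factor, was at -6.51 in MZ_Pou5f1 against MZ (SE 1.59, adjusted p = 0.41). Both eve1 and cyt1 were dim, at mean levels of 3.96 and 3.86, so their differences are limited by signal near the control features.

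Of 24 paralogs of the members, 18 were measured and none was called, with a median of -0.30 in MZ against WT and 0.46 in MZ_Pou5f1 against MZ. dlx1a was at -3.42 in MZ_Pou5f1 against MZ (SE 1.26, limma adjusted p = 0.41) and tp73 at -1.46 in MZ_Sox2 against WT_Sox2 (SE 0.54, adjusted p = 0.53). 3 paralogs ran with gata2a across the 16 samples, as chosen after their values were seen: dlx1a (r = 0.963), gata6 (0.929) and gata5 (0.909). tfap2d ran opposite to it, at -0.862.

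Markers of other tissues of the embryo are set beside the members, and their part in the differences was not tested. The lists overlap: chrd and nog1 are also on the BMP list and gata6 on that of the paralogs. For the dorsal organizer, 11 of 13 listed genes were measured, 10 were positive in MZ against WT (median 1.20) and all 11 negative in MZ_Pou5f1 against MZ (median -1.46). Their summed intensity ran from 5453 to 30690 in WT, 12420 to 43170 in MZ and 3493 to 9040 in MZ_Pou5f1. For the yolk syncytial layer, 7 of 8 were measured, with sums of 2530 to 18130 in WT, 4484 to 17210 in MZ and 1396 to 3836 in MZ_Pou5f1; its median marker lay between 3.0 and 7.10 in MZ and WT samples, partly at the level of the control features. The 6 germ plasm genes, all of which were measured, ran from 28770 to 74190 in WT, 21910 to 47940 in MZ and 47470 to 70430 in MZ_Pou5f1, with a median of 0.29 in MZ_Pou5f1 against MZ. For the enveloping layer list the sums were 31600 to 53200 in WT, 37840 to 57480 in MZ and 26420 to 54740 in MZ_Pou5f1. Sums follow the brightest genes, and the median level of this list moved more. It was 3.3 to 7.7 in WT samples, 6.7 to 9.5 in MZ and 4.2 to 5.5 in MZ_Pou5f1. The median difference of its genes was 0.76 in MZ against WT and -1.36 in MZ_Pou5f1 against MZ.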

How the data were processed

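The deposited values are linear intensity values per probe; the authors analysed both dye channels separately after quantile normalization, per the series design text. Agilent Feature Extraction read the arrays, per the submitters' processing notes. Neither its version nor the background correction is given in the sources used here. Of 16 columns, 14 had identical deposited intensity distributions. The other 2 were mapped by rank onto that of the 14, and log2 was taken. 60 control features were left out.

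All 16 samples entered 1 limma fit with group means, dye as covariate and array as random block (correlation 0.0429), with two-sided moderated tests and Benjamini-Hochberg adjustment over 21495 probes at 0.05. A probe counted as above the control features when it exceeded the higher of 2 control features in that sample. No detection flags were used. Probe names came from the platform annotation (12887 probes with 1 symbol, 8608 with none). Arrays have no read depth, so their number sets the precision.

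The members and lists were chosen with earlier results of these data known. All members are described, and each comparison gives every called member and the 3 genes with the largest moderated statistic; other members and lists are given by counts. For the paralog, BMP and enveloping layer lists, none with a call, the 2 genes with the largest statistic are named; the other marker lists are given by counts and sums. Like genes are the 2 with the highest r for each member. Further values named for gata2a, tfap2a, tp63, dlx3b and gata3, the counts without dlx5a and the paralogs singled out were chosen after their values were seen. The labels do not say that replicate numbers pair the samples. Between samples of the same number, correlations of deviations from group means ran from -0.676 to 0.509. With groups this small these values do not settle whether such samples shared a batch. Alternatives varied the normalization, dye, array, slide and replicate blocks, empirical Bayes options, the filter on dim probes, the groups fitted and each replicate left out. Software was limma 3.58.1 under R 4.3.3 with version 1.17.8 of the package data.table and, for figures, matplotlib 3.10.9 under Python 3.11.15. No sequences are printed.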

Additional observations from a re-analysis of the deposited data

Results flagged for a closer look

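For grhl1, all 4 MZ_Sox2 samples lay below the MZ mean and all 3 WT_Sox2 samples above the WT mean, but both pairs of groups overlapped. WT replicate 3 (7.73) lay above every WT_Sox2 sample, the highest of which was 6.74. MZ_Sox2 replicates 2 and 4 (7.12 and 6.89) lay above MZ replicate 3 (6.67). The interaction was -2.35 (SE 1.38, limma adjusted p = 0.63), which did not pass the threshold. Without MZ_Sox2 replicate 1 the interaction was -1.26. The grhl1 difference of WT_Sox2 against WT, 0.76 with all samples, was -0.12 without WT replicate 2, which leaves both genotypes with the same sign.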

How the results depend on the processing

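For MZ against WT, leaving out 1 replicate gave 0 to 1 members called (dlx5a, adjusted p = 0.027 without WT replicate 3), and for MZ_Pou5f1 against MZ 0 to 1 (foxi1, at -4.77 and adjusted p = 0.046 without MZ replicate 3). Fitting only the groups of MZ_Pou5f1 against MZ gave 1 (foxi1). The other 5 comparisons gave 0 in every leave-one-out fit. These fits kept the array correlation of all samples. When it was re-estimated, an alternative chosen after seeing the data, it ran from -0.418 to 0.651, and the counts were 1 in MZ against WT without WT replicate 2 or without MZ replicate 1 (dlx5a) and 3 in MZ_Pou5f1 against MZ without MZ replicate 3 (foxi1, dlx5a, tfap2a), where 1431, 1359 and 958 of all probes were called against 1, 1 and 0 reported. It gave 0 members without WT replicate 3. Over all alternatives the adjusted p of dlx5a in MZ against WT ran from 0.027 to 0.99 and that of foxi1 in MZ_Pou5f1 against MZ from 0.037 to 0.94. Over the leave-one-out fits, grhl1 in WT_Sox2 against WT ran from -0.12 to 1.89 and gata2a in MZ_Pou5f1 against WT from -2.34 to 0.15. Signs were followed over the alternatives only for the 3 genes with the largest moderated statistic in each comparison. Among these, grhl1 turned in WT_Sox2 against WT without WT replicate 2 (-0.12, or -0.28 re-estimated). gata2a turned in MZ_Sox2 against WT_Sox2 with slide as a fixed block (-0.61). It also turned in MZ_Pou5f1 against WT with that block (0.15) and without WT replicate 3 (0.15, or 0.24 re-estimated). Signs of the other members are not listed for the alternatives. In MZ_Sox2 against WT_Sox2 the median of the member genes turned from 0.43 to -1.49 with that block, so gata2a was not the only gene to turn there. The cause was not tested. With the replicate block 0 members were called in each of the 7 comparisons, which changed no call. Slide as a fixed block could not give MZ_Sox2 against MZ or WT_Sox2 against WT. Of the alternative counts of called members, 216 equalled the reported 0 and 6 did not. A fit without WT replicate 3 and MZ replicate 3 together called more members and is not reported, because it chose the samples by their measured levels. Whether a sample was exchanged is not known from the labels. Signal near the control features limits dlx3b, dlx5a and 3 tp63 probes among the members. It also limits eve1, cyt1, cpb1 and psmb13a among the other genes named.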
